A study of Mus musculus with 24 samples.

Results

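Cubilin (Cubn), amnionless (Amn), megalin (Lrp2) and the clathrin adaptor DAB2 (Dab2) form receptor machinery of visceral endoderm, an extraembryonic layer of the early mouse conceptus. With it this layer takes up proteins, lipids and vitamins. These 4 genes were taken by name, by a rule without a measured threshold, from 53379 genes in the deposited tables. All 4 were among the 19470 genes that passed the filter on low counts, and they are followed here over 10 RNA libraries in 5 groups.

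Cubilin is a very large extracellular receptor with no membrane-spanning part of its own. Amnionless is the membrane protein that anchors cubilin and carries it to the cell surface. Megalin is a giant member of the LDL receptor family that shares ligands with cubilin and internalizes together with it. DAB2 binds the tails of LDL receptor family members and links them to clathrin, to the AP2 adaptor and to the motor protein myosin VI. In mouse, the same machinery works in the kidney proximal tubule and in the yolk sac, where it takes up maternal nutrients before the placenta functions.

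All cells belonged to the mouse embryonic stem cell line E14Tg2a.IV, a derivative of the E14 line. The study compared embryoid bodies at day 4 of differentiation from Smad2-/- cells, from Smad3-/- cells and from Smad2/3DKO cells, which lack both genes by label, with wild-type (WT) embryoid bodies at day 4 and WT stem cells at day 0. Embryoid bodies are aggregates that stem cells form in suspension in medium without LIF, the factor that keeps them undifferentiated, so all day 4 groups share its withdrawal. SMAD2 and SMAD3 are the transcription factors that carry Nodal, Activin and TGF-beta signals to the nucleus. Each group had 2 libraries, and nothing in the labels says that they came from separate cultures, so the p-values reflect only how these libraries vary, which may be technical. Each knockout genotype appears under a single line number in the names of its deposited tables, so a genotype cannot be told apart from its line. The series also holds 14 ChIP samples, which were not analysed here.

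Library totals were 35733249 to 53672980 expected counts. Smad2 RNA was 19.2 and 20.4 CPM (counts-per-million on TMM-scaled totals) in Smad2 knockouts and 22.2 and 22.7 CPM in double knockouts, against 49.9 and 38.3 CPM in WT day 4. Smad3 RNA was 49.7 and 48.7 CPM in Smad3 knockouts, against 42.0 and 44.9 CPM in WT day 4, so the level of this RNA did not check that label. In double knockouts Smad3 RNA was lower than in WT day 4 (log2 fold change -0.69, adjusted p = 0.0136, edgeR quasi-likelihood test). It was also lower in Smad2 knockouts (-0.49, adjusted p = 0.0405, same test), which are not Smad3 knockouts by label. Ribosomal protein genes took 13.5 and 12.7% of the counts in Smad2 knockouts and 15.7 and 11.6% in WT day 0, against 5.87 to 7.98% in the other 6 libraries. Names of the deposited tables fall into 2 series, the second with replicate 2 of every group except the double knockout, whose libraries are both in the first. The labels give no batch. Embryoid bodies are mixed tissue, so fewer visceral endoderm cells and less RNA per cell cannot be told apart in any result below.

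On the mm10 build, Dab2 (ENSMUSG00000022150.16) lies on chromosome 15 from 6299788 to 6440712 on the plus strand, with 14 annotated transcripts in GENCODE M21. Cubn (ENSMUSG00000026726.10) lies on chromosome 2 from 13276338 to 13491813 on the minus strand. Lrp2 (ENSMUSG00000027070.14) is on the same chromosome and strand, from 69424340 to 69586065. Amn (ENSMUSG00000021278.7) is compact, on chromosome 12 from 111271095 to 111276426 on the plus strand. The sources used here do not say if reads were counted by strand, so antisense partners could share reads. Gm16311 and Gm18888, antisense to Dab2, had 0 counts in every library, and Gm13270, antisense to Cubn, had 0 to 26.3 expected counts.

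The DNA upstream of the start sites differs in composition between these genes. It is shown because 3 of the 4 genes moved together in several comparisons, and because Dab2 has 2 annotated RefSeq starts (GRCm38.p6). Each window holds the 250 bases before a start, 5′ to 3′ on the gene's strand, and capitals mark motif matches on either strand: GATAA (GATA factors) or its reverse, CAGAC (SMAD proteins) or its reverse GTCTG, and GTTAAT (an arm of the HNF1 site).
Dab2 start 1, chr15:6299539-6299788 plus: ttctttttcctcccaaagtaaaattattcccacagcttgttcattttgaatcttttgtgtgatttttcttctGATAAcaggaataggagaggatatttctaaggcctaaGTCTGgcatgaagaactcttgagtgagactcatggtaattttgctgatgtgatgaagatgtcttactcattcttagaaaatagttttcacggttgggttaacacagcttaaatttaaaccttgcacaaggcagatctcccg
Dab2 start 2, chr15:6386498-6386747 plus: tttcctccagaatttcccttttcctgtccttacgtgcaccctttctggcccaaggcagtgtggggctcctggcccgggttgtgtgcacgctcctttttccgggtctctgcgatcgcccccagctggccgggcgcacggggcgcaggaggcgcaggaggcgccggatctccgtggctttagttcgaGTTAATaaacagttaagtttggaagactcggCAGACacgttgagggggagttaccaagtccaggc
Cubn, chr2:13491877-13492126 minus: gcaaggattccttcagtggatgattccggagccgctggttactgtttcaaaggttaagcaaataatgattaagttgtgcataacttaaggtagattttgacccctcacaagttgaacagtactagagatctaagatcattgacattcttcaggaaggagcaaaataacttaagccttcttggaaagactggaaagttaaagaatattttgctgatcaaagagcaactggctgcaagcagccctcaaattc
Lrp2, chr2:69586030-69586279 minus: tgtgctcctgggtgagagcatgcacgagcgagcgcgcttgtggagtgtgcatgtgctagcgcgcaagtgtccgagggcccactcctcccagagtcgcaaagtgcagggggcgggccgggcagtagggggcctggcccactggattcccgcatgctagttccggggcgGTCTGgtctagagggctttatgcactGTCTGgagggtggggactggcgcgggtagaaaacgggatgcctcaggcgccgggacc

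Dab2 start 1 and Cubn lie behind AT-rich windows with 36.8 and 39.6% GC and 2 CG dinucleotides each. Dab2 start 2 (60.0% GC, 17 CG), Amn (61.2% GC, 11 CG) and Lrp2 (66.4% GC, 18 CG) lie behind GC-rich windows. Over 32851 RefSeq windows of this length, 6.74% had a lower GC content than Dab2 start 1 and 85.2% had a lower one than Lrp2. GATAA stood 178 bases before Dab2 start 1, and in 22.6% of all windows. CAGAC in either orientation stood in 3 of the 5 windows and in 42.2% of all windows. GTTAAT stood 65 bases before Dab2 start 2 and in 6.43% of all windows. The FOXH1 motif AATNCACA (3.18% of windows) and the FOXA motif TGTTTAC (3.17%) had no match in the 5 windows, and the Cubn and Amn windows matched none of the 5 motifs. A match describes letters only, and no binding was measured here.

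RNA of all 4 genes was higher in WT at day 4 than in WT stem cells, least firmly for Amn. In WT embryoid bodies at day 4, against WT stem cells at day 0, Cubn was 522-fold higher, Dab2 104-fold, Lrp2 16.3-fold and Amn 9.04-fold. All 4 were called (adjusted p under 0.05), where 28.9% of tested genes were called higher and 52.1% were called in either direction.

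For Cubn, WT day 4 libraries had 334 and 266 CPM, against 0.478 and 0.658 CPM in WT day 0, which rest on 16 and 25 counts. Its log2 fold change was 9.03 ± 0.54 (SE, adjusted p = 1.59e-05, edgeR quasi-likelihood test with Benjamini-Hochberg adjustment over 19470 genes, here and below). Dab2 had 245 and 207 CPM in WT day 4, against 1.70 and 2.63 CPM in WT day 0, which is 6.70 ± 0.32 on the log2 scale (adjusted p = 6.61e-06). The groups stood far apart for both genes. Lrp2 had 533 and 492 CPM in WT day 4, against 30.3 and 32.7 CPM in WT day 0 (log2 fold change 4.02 ± 0.18, adjusted p = 5.74e-06), and was thus the member with the highest CPM in stem cells. Amn had 4.18 and 24.1 CPM in WT day 4, against 1.46 and 1.66 CPM in WT day 0 (log2 fold change 3.18 ± 0.88, adjusted p = 0.014). The WT day 4 libraries of Amn differed from each other more than those of any other member, with 183 against 1015 counts. The call of Amn was lost in 3 of 22 alternatives, among them leaving out WT day 4 replicate 2 (log2 fold change 1.43).

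**Figure D1:**
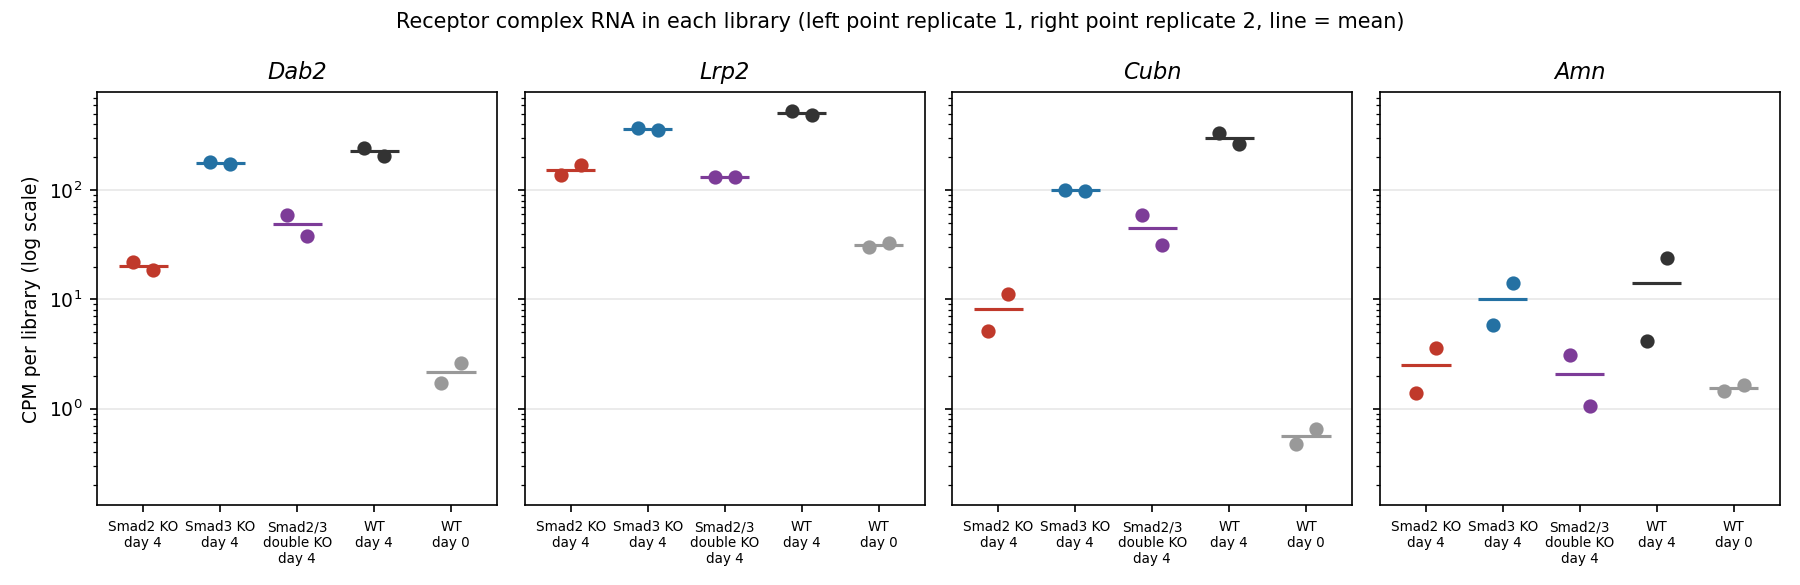
CPM per library on a log scale for each gene, with the left point replicate 1, the right point replicate 2 and a line at the group mean. Dab2, Lrp2 and Cubn are highest in WT day 4 and lowest in WT day 0, with Smad3 knockouts nearest to WT day 4, and the 2 points of Amn lie wide apart in every day 4 group.

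All 4 genes were lower in Smad2 knockouts than in WT at day 4. Mean Cubn in Smad2 knockouts stood at 2.71% of its WT day 4 mean, Dab2 at 8.99%, Amn at 17.8% and Lrp2 at 30.1%. All 4 were called, where 20.1% of tested genes were called lower, 15.4% higher and 35.5% in either direction.

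In Smad2 knockouts Cubn had 5.14 and 11.1 CPM, and its log2 fold change against WT was -5.20 ± 0.43 (adjusted p = 0.000324). Dab2 had 21.8 and 18.8 CPM, at -3.48 ± 0.27 on the log2 scale (adjusted p = 0.000245). Lrp2 had 138 and 171 CPM, at -1.73 ± 0.16 (adjusted p = 0.000455). In each of these genes both Smad2 knockout libraries lay below both WT day 4 libraries, as they did in 33.6% of tested genes. Amn had 1.40 and 3.63 CPM, both below the lower WT value (4.18 CPM) as well, with a log2 fold change of -2.48 ± 0.84 (adjusted p = 0.0456). That call was lost without WT day 4 replicate 2 (-0.72, adjusted p = 0.438) and in 7 of the other 21 alternatives. Within the first and second series of table names the log2 difference was -6.01 and -4.58 for Cubn, -3.49 and -3.46 for Dab2, -1.95 and -1.53 for Lrp2, and -1.54 and -2.72 for Amn.

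Smad2 knockout embryoid bodies still stood above stem cells for 3 of the genes. Against WT day 0 the log2 fold change was 3.22 ± 0.28 for Dab2, 3.83 ± 0.47 for Cubn and 2.29 ± 0.17 for Lrp2, all called, where 12.6% of tested genes were called higher and 21.9% in either direction. On log2(TPM + 1) values Cubn was at 0.63 there and not called (adjusted p = 0.172). Amn, at 0.69 ± 0.85, was not called (adjusted p = 0.6). In Smad3 knockouts all 4 genes were called higher than WT day 0 (Amn at 2.68 ± 0.87, adjusted p = 0.026), where 29.7% of tested genes were called higher and 54.4% in either direction. The Amn call was lost without WT day 0 replicate 1 (2.60, adjusted p = 0.127), without WT day 0 replicate 2 (2.77, adjusted p = 0.104) and without Smad3 knockout replicate 2 (1.92, adjusted p = 0.128). In double knockouts Dab2, Cubn and Lrp2 were called higher than WT day 0, at 4.48 ± 0.29, 6.31 ± 0.49 and 2.07 ± 0.17 on the log2 scale, where 29.4% were called higher and 55.4% in either direction, and Amn was not (0.41 ± 0.85, adjusted p = 0.701).

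A trend with transcript length runs through the comparison of Smad2 knockouts with WT. Across 19470 genes the Spearman correlation of the log2 fold change with transcript length was -0.498, while it was -0.0736 for Smad3 knockouts and -0.0099 for double knockouts against WT (genes are not independent, and all 3 share the WT libraries). Among the longest twentieth of genes the median log2 fold change of Smad2 knockouts against WT was -1.11, and among the shortest twentieth it was 0.98. Lrp2 averaged 15150 bases, longer than 99.93% of tested genes, and Cubn 11260 bases, longer than 99.63%. Dab2 averaged 3026 bases and Amn 1560 bases, lengths that are common among all genes.

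With an offset for this length trend the log2 fold change of Lrp2 in Smad2 knockouts was -0.38 and no longer called (adjusted p = 0.127), and with an offset for length and GC content it was -0.43 (adjusted p = 0.0223). Cubn was still called lower with the length offset, at -3.92 (adjusted p = 0.000565), and Dab2 at -3.23 (adjusted p = 0.000167). The difference in Lrp2 therefore depended on how length was treated, in size and in call, while Cubn and Dab2 kept their call. Day 0 and day 4 of WT showed a length trend of the opposite sign (Spearman correlation 0.465), and there all 4 genes were called with either offset, Lrp2 at 2.30 on the log2 scale with the length offset.

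**Figure D2:**
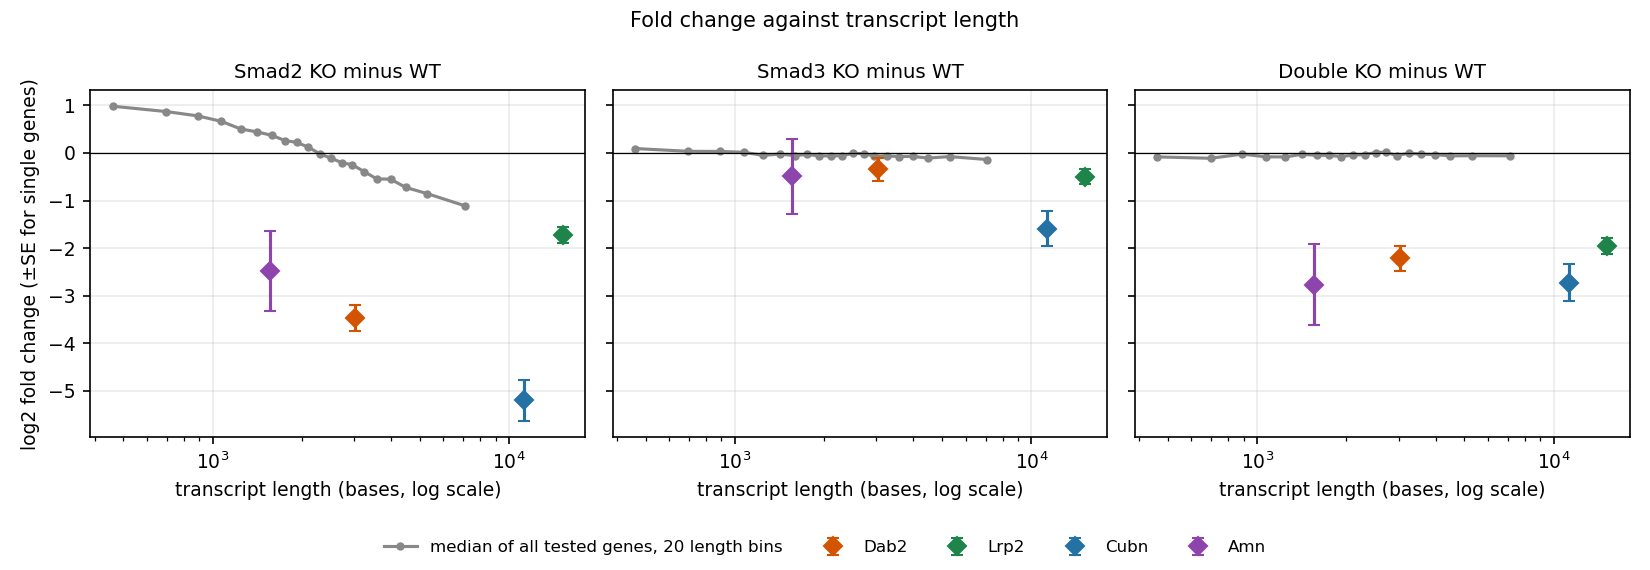
Log2 fold change at day 4 against transcript length in bases (log scale) for each knockout minus WT; the grey line joins medians of all tested genes in 20 length bins, and diamonds are the 4 genes with their SE. The grey line slopes down in the Smad2 knockout and is nearly flat in the other knockouts, where Cubn, Dab2 and Lrp2 still lie below its level; Cubn and Lrp2 are longer than the median of the longest bin.

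Smad3 knockouts stood nearer to WT. None of the 4 genes was called by edgeR, where 108 of the tested genes were (0.555%, with 0.123% lower and 0.431% higher). Of the 4, 2 had an unadjusted p under 0.05 by edgeR, as did 3343 of all 19470 tested genes. DESeq2 called Cubn, among 776 of 32651 genes. Cubn averaged 33.2% of its WT level, Lrp2 70.7%, Amn 71.0% and Dab2 78.7%. Each of these shares is a mean over 2 libraries. The libraries of WT day 4 were the least alike of the 5 groups (Pearson correlation of log2 CPM 0.969). Few calls here do not show that levels were equal.

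Cubn was the member furthest from WT in Smad3 knockouts, with 100.2 and 99.2 CPM, against 334 and 266 CPM in WT day 4. Both knockout libraries lay below both WT libraries, as they did in 25.9% of tested genes, and the log2 fold change of -1.59 ± 0.37 had an unadjusted p of 0.00183 and an adjusted p of 0.0916. It was called in 4 of 22 alternatives: with no filter on low counts (adjusted p = 4.82e-09), by DESeq2 (adjusted p = 0.00121), with the length and GC offset (adjusted p = 0.0391) and without WT day 4 replicate 2 (adjusted p = 0.0276). Over all alternatives its adjusted p reached at most 0.546, and its log2 fold change was between -1.75 and -1.39.

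Lrp2 had 368 and 357 CPM in Smad3 knockouts, against 533 and 492 CPM in WT day 4 (log2 fold change -0.50 ± 0.16, adjusted p = 0.171). Dab2 had 182 and 174 CPM, against 245 and 207 CPM in WT day 4 (-0.34 ± 0.24, adjusted p = 0.508). Neither difference was called, and the separation of their libraries, Smad3 knockouts below WT, was again that found in 25.9% of tested genes. Amn had 5.88 and 14.2 CPM, inside the range of its WT day 4 libraries, and its log2 fold change was -0.49 ± 0.79 (adjusted p = 0.799). Without WT day 4 replicate 2 it turned to 1.26. By series of table names, first and second, the log2 difference was -1.74 and -1.42 for Cubn and -0.53 and -0.46 for Lrp2. For Dab2 it was -0.43 and -0.25, and for Amn 0.49 and -0.76.

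In double knockouts all 4 members were again called lower than WT, where 12.3% of tested genes were called lower, 10.8% higher and 23.1% in either direction. Means in double knockouts were 14.6% of WT day 4 for Amn, 15.1% for Cubn, 21.5% for Dab2 and 25.8% for Lrp2.

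Lrp2 had libraries close together, with 133 and 131 CPM in double knockouts and a log2 fold change against WT of -1.96 ± 0.17 (adjusted p = 9.34e-05), and it was called in all 22 alternatives. Cubn had 59.2 and 31.7 CPM (-2.72 ± 0.39, adjusted p = 0.0012). Dab2 had 58.9 and 38.3 CPM (-2.22 ± 0.26, adjusted p = 0.000442). Replicate 1 was the higher double knockout library for all 4 genes. Amn had 3.07 and 1.07 CPM (-2.77 ± 0.85, adjusted p = 0.0439), and this call was lost in 12 of 22 alternatives, among them leaving out WT day 4 replicate 2 (-1.01, adjusted p = 0.318).

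**Figure D3:**
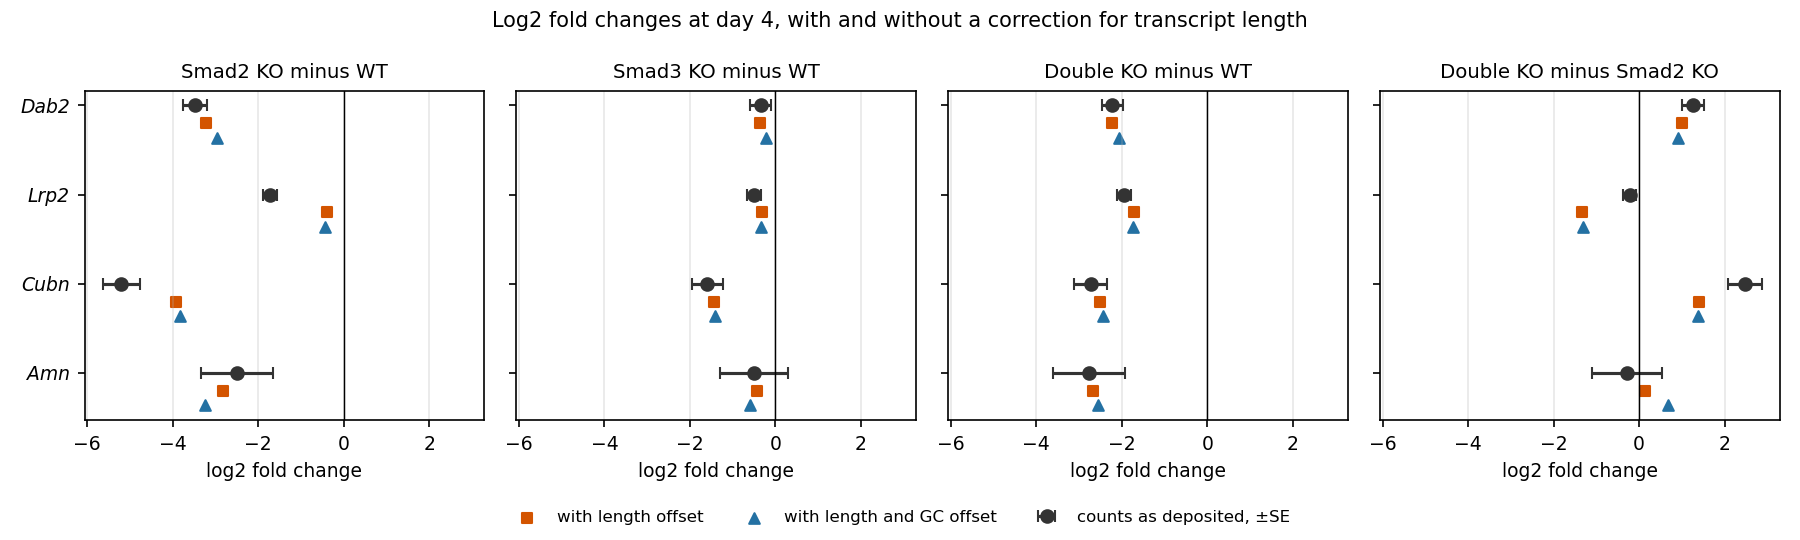
Log2 fold changes of the 4 genes in 4 comparisons at day 4, each as the first named minus the second: circles with SE from the counts as deposited, squares with a length offset and triangles with a length and GC offset. Offsets shift Lrp2 and Cubn in the comparisons that involve Smad2 knockouts (Lrp2 -1.73 as deposited and -0.38 with the length offset against WT) and hardly move them in Smad3 and double knockouts against WT.

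Dab2 and Cubn were higher in double knockouts than in Smad2 knockouts, and Lrp2 and Amn were not called. Double knockouts exceeded Smad2 knockouts 5.57-fold for Cubn (log2 fold change 2.48 ± 0.39, adjusted p = 0.00172) and 2.39-fold for Dab2 (1.26 ± 0.25, adjusted p = 0.00475), where 20.5% of tested genes were called higher and 39.6% in either direction. Both genes were called in all 22 alternatives, with Cubn at 1.41 and Dab2 at 1.01 on the log2 scale with the length offset. Lrp2 was at -0.22 ± 0.16 (adjusted p = 0.29) and Amn at -0.28 ± 0.83 (adjusted p = 0.804). The sign of Lrp2 changed with scale, to 0.65 on log2(TPM + 1) values (adjusted p = 0.0122), against -1.34 with the length offset (adjusted p = 0.0011), so no direction is given for it.

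An interaction term compared the effect of Smad2 loss in cells without Smad3 by label (double minus Smad3 knockout) with that in WT cells (Smad2 knockout minus WT). For Cubn those effects were -1.13 ± 0.37 and -5.20 ± 0.43 on the log2 scale, and the difference of 4.07 ± 0.53 was called (adjusted p = 0.00461). For Dab2 they were -1.87 ± 0.25 and -3.48 ± 0.27, a difference of 1.60 ± 0.35 (adjusted p = 0.0173). Of the tested genes, 11.3% were called with a positive term and 18.9% in either direction. The call of Cubn was kept in all 22 alternatives (2.84 with the length offset, adjusted p = 0.0157). That of Dab2 was lost without Smad3 knockout replicate 1 (1.63, adjusted p = 0.0581), without Smad3 knockout replicate 2 (1.57, adjusted p = 0.0826) and without double knockout replicate 1 (1.26, adjusted p = 0.075). Amn (0.21 ± 1.14, adjusted p = 0.915) and Lrp2 (0.28 ± 0.23, adjusted p = 0.404) were not called. Each genotype is a single line, so these differences cannot be told apart from differences between lines.

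Dab2 averaged 20.3 ± 2.15 CPM in Smad2 knockouts, 178 ± 5.94 in Smad3 knockouts and 48.6 ± 14.6 in double knockouts, against 226 ± 27.0 in WT day 4 and 2.17 ± 0.658 in WT day 0 (SD, n = 2 here and below). Its order from high to low was WT day 4, Smad3 knockout, double knockout, Smad2 knockout, WT day 0, and all neighbours in that order were called apart except Smad3 knockout and WT. Cubn averaged 8.13 ± 4.23 CPM in Smad2 knockouts, 99.7 ± 0.686 in Smad3 knockouts and 45.4 ± 19.4 in double knockouts, against 300.1 ± 47.7 in WT day 4 and 0.568 ± 0.127 in WT day 0. The order was the same, but its Smad3 knockouts were not called apart from WT, nor its double knockouts from Smad3 knockouts (log2 fold change -1.13, adjusted p = 0.0681, called in 9 of 22 alternatives).

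Lrp2 averaged 154 ± 22.8 CPM in Smad2 knockouts, 363 ± 8.06 in Smad3 knockouts and 132 ± 1.15 in double knockouts, against 513 ± 28.7 in WT day 4 and 31.5 ± 1.72 in WT day 0. Double and Smad2 knockouts were not called apart for Lrp2, and their order changed with scale. Smad2 knockouts were called lower than Smad3 knockouts (-1.23 ± 0.16, adjusted p = 0.0018), a call lost with the length offset (-0.07, adjusted p = 0.811). Double knockouts were also lower than Smad3 knockouts (-1.46 ± 0.16, adjusted p = 0.000673) and kept that call in all 22 alternatives. Amn averaged 2.52 ± 1.57 CPM in Smad2 knockouts, 10.0 ± 5.89 in Smad3 knockouts and 2.07 ± 1.42 in double knockouts, against 14.2 ± 14.1 in WT day 4 and 1.56 ± 0.138 in WT day 0. No neighbours in the order of Amn were called apart.

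In Smad2 against Smad3 knockouts 3 of the 4 genes were called lower (Amn was not), where 17.9% of tested genes were called lower and 33.6% in either direction. In double against Smad3 knockouts Dab2 and Lrp2 were called lower, where 8.01% of tested genes were called lower and 15.5% in either direction.

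Per unit of length, the balance between the receptors also differed between libraries. On the TPM scale (transcripts-per-million, which divides by transcript length), Lrp2 exceeded Cubn 19.7-fold and 11.1-fold in Smad2 knockouts, 2.68-fold and 2.62-fold in Smad3 knockouts and 1.68-fold and 3.06-fold in double knockouts, against 1.18-fold and 1.36-fold in WT day 4. In WT day 0 the ratio was 51.3 and 38.0, from Cubn values of 0.03 and 0.05 TPM, which the authors rounded to 2 decimals. On this ratio every knockout library had relatively less Cubn than either WT day 4 library, by as little as 1.68 against 1.36. How many gene pairs separate in this way was not counted. Both genes are longer than nearly all others, and the ratio was not tested.

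The TPM order was Dab2, Lrp2, Cubn, Amn in 5 libraries, which were both double knockouts, both WT day 4 libraries and Smad3 knockout replicate 1. In Smad3 knockout replicate 2, Amn (13.9 TPM) stood above Cubn (13.1 TPM). In both Smad2 knockouts the order was Lrp2, Dab2, Amn, Cubn, and in both day 0 libraries Lrp2, Amn, Dab2, Cubn. Cubn was thus the least abundant member in Smad2 knockouts (0.43 and 0.81 TPM) and in stem cells, while in WT day 4 it stood above Amn (44.4 and 32.7 TPM). Dab2 stood at 6.26 and 5.0 TPM in Smad2 knockouts, above 58.92 and 56.44% of tested genes, against 130 and 105 TPM in WT day 4, above 94.39 and 93.18% of them.

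The mix of transcripts to which reads of Dab2 were assigned also varied between libraries. The gene length that RSEM reports is weighted by the estimated shares of its transcripts, and for Dab2 it was 3377 and 3238 bases in Smad2 knockouts. It was 2908 and 2879 bases in Smad3 knockouts and 2849 and 2816 bases in double knockouts, against 2958 and 2872 bases in WT day 4 and 3038 and 3321 bases in WT day 0. The Smad2 knockouts and day 0 libraries, where Dab2 was low, did not overlap the other 6. How many of all genes separate in this way was not counted, so it is not known to be particular to Dab2. These 4 libraries are also those with the higher share of ribosomal protein counts. Day 0 values rest on 57 and 100 counts, and no test was made. Cubn, by contrast, kept a length near that of its single coding transcript (11262 bases) in all libraries.

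**Figure D4:**
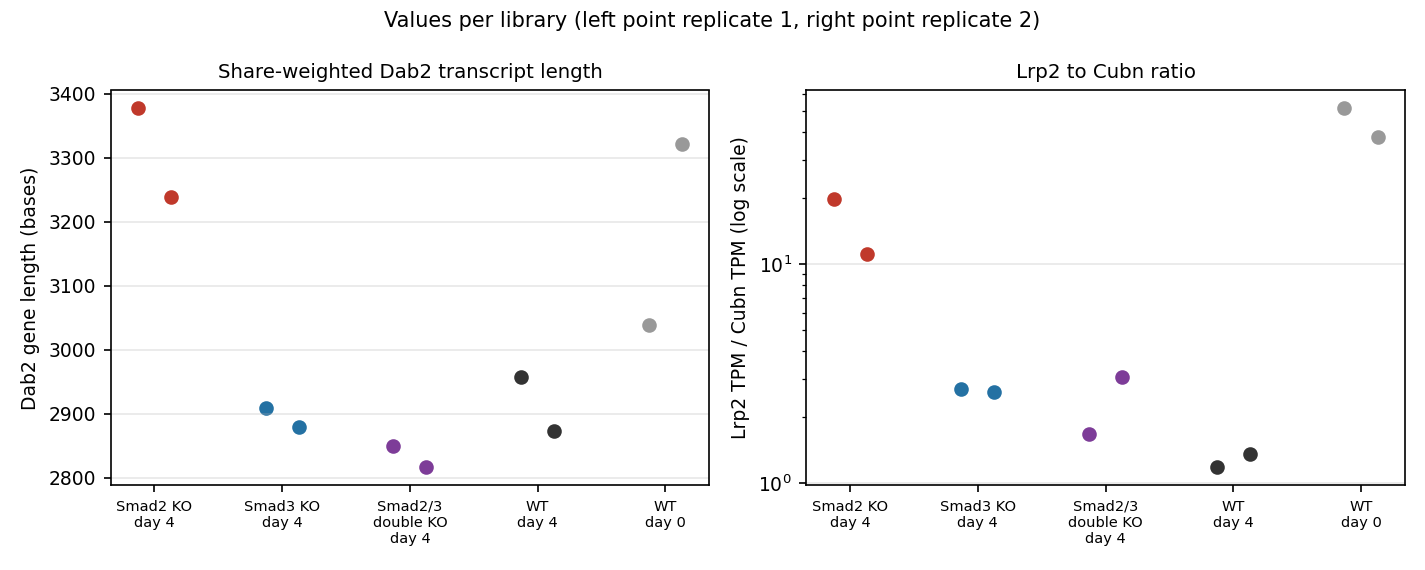
Left, the share-weighted length of Dab2 transcripts in bases per library (axis does not start at 0); right, the ratio of Lrp2 to Cubn in TPM on a log scale, with left points replicate 1 and right points replicate 2. Smad2 knockouts and WT day 0 lie apart from the other groups in both panels, with ratios of 11.1 and above. How many genes or gene pairs separate in this way was not counted.

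Other genes of visceral endoderm fell with the receptors in Smad2 knockouts. Of 20 markers of this tissue, all tested, 16 were lower in Smad2 knockouts than in WT by the same test and 1 was higher. Among all tested genes 20.1% were called lower there and 15.4% higher. The median log2 fold change of the list was -2.90, beside -0.01 over all tested genes. Apob, the apolipoprotein of secreted lipid particles, was at -6.81 ± 0.39 (adjusted p = 9.49e-05), and Foxa2, an endoderm transcription factor also made by definitive endoderm, at -4.68 ± 0.71 (adjusted p = 0.00219). Rhox5, a homeobox gene, was the marker called higher (0.86 ± 0.28, adjusted p = 0.038). That call was lost in 15 of 22 alternatives, and the sign turned with the length offset (-0.11, adjusted p = 0.812).

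In double knockouts 13 markers were called lower than WT and 1 higher, where 12.3% and 10.8% of tested genes were. The list median was -1.71 (all genes -0.05). Apob was at -5.41 ± 0.36 (adjusted p = 3.50e-05) and Rhox5 at 1.97 ± 0.29 (adjusted p = 0.00136). In Smad3 knockouts edgeR and DESeq2 each called 0 of the 20, with a median of -0.20 (all genes -0.04). By edgeR 4 of the 20 had an unadjusted p under 0.05 there, as did 3343 of all 19470 tested genes. In WT day 4 against day 0, 18 were higher and 1 lower by the test, and the median was 5.14 (all genes 0.10). There 28.9% of tested genes were called higher and 52.1% in either direction.

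Summed over the 20 markers the libraries had 95.7 to 113 CPM in Smad2 knockouts, 370 to 373 CPM in Smad3 knockouts and 167 to 179 CPM in double knockouts, against 468 to 478 CPM in WT day 4 and 41.9 to 54.9 CPM in WT day 0. Summed over the 4 receptor genes they had 167 to 204, 644 to 657 and 202 to 254 CPM in the same 3 knockouts, against 990 to 1116 CPM in WT day 4 and 33.9 to 37.7 CPM in WT day 0. The groups fell in the same order in both sums, with Smad2 and double knockouts overlapping in the receptor sum. Rhox5 and Cited1, which ran against most of the list, weighed heavily in the marker sums of these knockouts. Rhox5 averaged 35.8 CPM in Smad2 and 76.9 CPM in double knockouts, which is 182 and 391% of its WT day 4 mean. Cited1 averaged 28.3 and 18.4 CPM there, which is 217 and 141% of its WT day 4 mean. The order of the marker sums without Rhox5 and Cited1 was not computed. In stem cells Ttr and Apoa4, which encode carriers secreted by visceral endoderm, were at 0 in both libraries. At day 4 none of the 20 markers was at 0 in any library.

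Cubn kept a smaller share of its WT level than most of these markers. In Smad2 knockouts only Apob kept a smaller share of its WT level (0.879%, against 2.71% for Cubn), and in Smad3 knockouts only Foxa2 did (16.2%, against 33.2%). Median shares kept by the 20 markers were 13.4% in Smad2 knockouts, 87.0% in Smad3 knockouts and 30.5% in double knockouts. In double knockouts 5 markers kept less than Cubn. Lrp2 in Smad2 knockouts kept more than 16 of the 20 markers. These ranks describe means of 2 libraries and were not tested, and Cubn is longer than nearly all genes.

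Markers of other cell types moved in the same comparisons. Of 14 trophoblast markers, 13 were called higher in Smad2 knockouts than in WT and 13 in double knockouts, with medians of 3.73 and 5.06. Among all tested genes 15.4% and 10.8% were called higher in these comparisons. The homeobox gene Rhox9, a member of a multigene family among which reads could be split, was at 5.78 ± 0.39 in Smad2 knockouts and 7.26 ± 0.41 in double knockouts. Their summed level was 2043 to 2980 CPM in Smad2 knockouts, 667 to 842 CPM in Smad3 knockouts and 2505 to 3113 CPM in double knockouts, against 232 to 418 CPM in WT day 4. In Smad3 knockouts 4 of the 14 were called higher, where 0.431% of tested genes were. The transcription factor Hand1 was among them (3.36 ± 0.41, adjusted p = 0.0174). A fit of the Smad3 knockout and WT libraries alone called 0 of all tested genes, so these 4 calls rest on the spread pooled over all 5 groups. That of Hand1 was lost in 5 of 22 alternatives. What part these other cell types have in the receptor results was not tested.

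Of 14 markers of parietal endoderm, the other extraembryonic endoderm, 6 were called lower and 1 higher in Smad2 knockouts than in WT. In double knockouts 1 was called lower and 3 higher. Among all tested genes 20.1% were called lower and 15.4% higher in Smad2 knockouts, and 12.3% and 10.8% in double knockouts. Srgn, a proteoglycan, was at -3.42 ± 0.27 in Smad2 knockouts and the keratin Krt19 at 3.44 ± 0.50. Their sum was 1006 to 1367 CPM in Smad2 knockouts and 2353 to 2594 CPM in double knockouts, against 1398 to 1970 CPM in WT day 4. Of 10 definitive endoderm and mesendoderm markers, 8 were called lower in Smad2 knockouts, 2 in Smad3 knockouts (0.123% of tested genes) and 8 in double knockouts. The Smad3 knockout calls, Cer1 and Trh, were lost in 6 and 7 of 22 alternatives. Foxa2 and Sox17 are also among the visceral endoderm markers. Of 10 neuroectoderm markers, 2 were called higher and 2 lower in Smad2 knockouts, and 3 higher and 1 lower in double knockouts. Their sum was 70.6 to 70.7 CPM in Smad2 knockouts, 126 to 127 CPM in Smad3 knockouts and 43.4 to 44.8 CPM in double knockouts, against 126 to 143 CPM in WT day 4. The median log2 fold changes of the list went the other way, at 0.97 in Smad2 and 0.70 in double knockouts. Over the alternatives they were between -0.33 and 1.07 and between -0.39 and 1.14, so no direction is given for the neuroectoderm list. DAB2 and megalin are not confined to visceral endoderm, so these sums stand beside every receptor result.

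**Figure D5:**
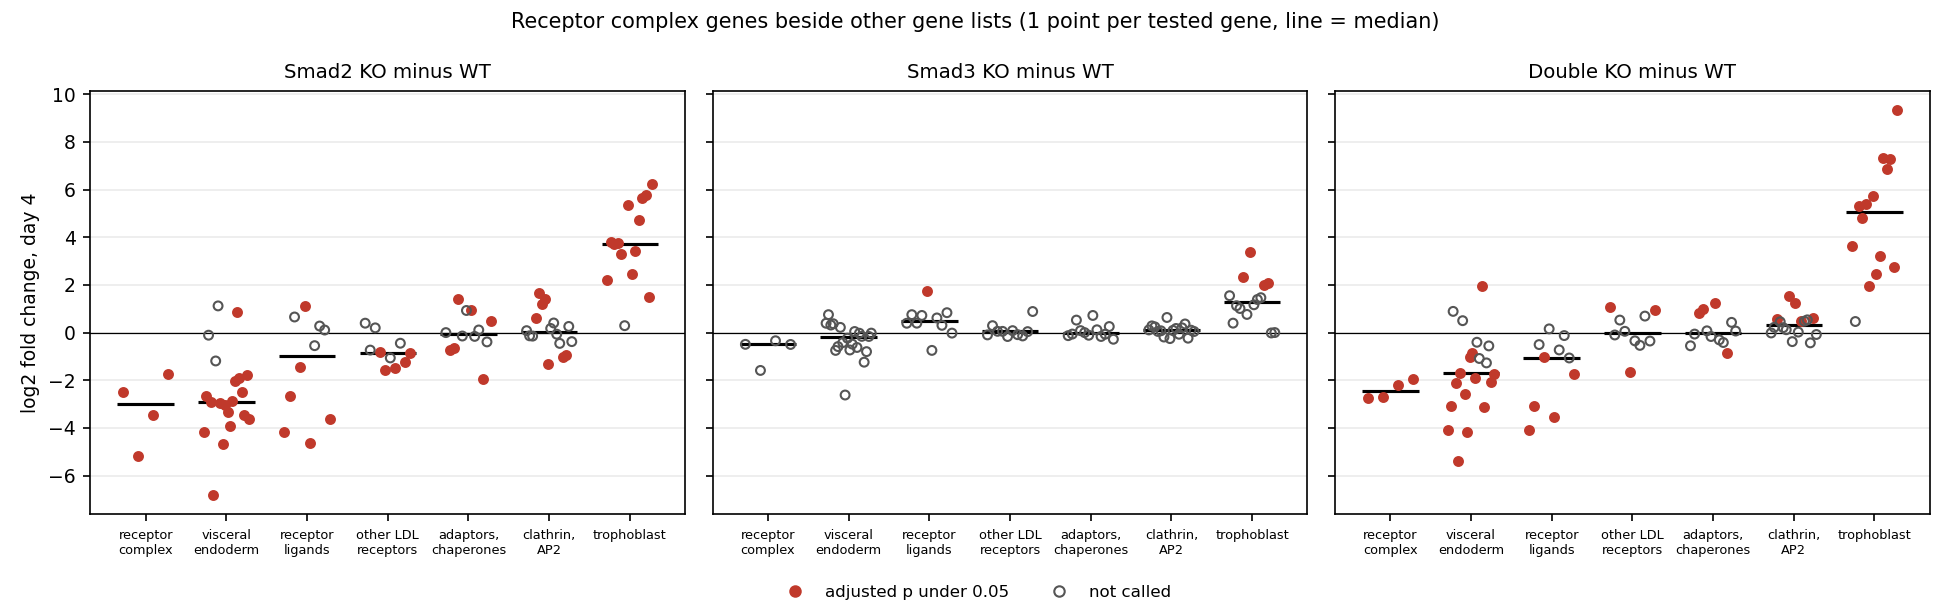
Log2 fold change of each tested gene of 7 lists at day 4, for Smad2, Smad3 and double knockouts minus WT, with the median as a line and filled points for adjusted p under 0.05. All 4 receptor genes and most visceral endoderm markers lie below 0 in Smad2 and double knockouts, the trophoblast markers lie above it, and the clathrin and adaptor lists spread around 0.

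Ligands of the receptors fell in part. Of 12 listed ligands 10 were tested, and Afp, Apoa1 and Ttr are also among the visceral endoderm markers. In Smad2 knockouts 5 were called lower than WT and 1 higher, where 20.1% and 15.4% of tested genes were. The list median there was between -2.02 and -0.56 over the alternatives. In double knockouts 5 were lower and 0 higher (median -1.05, all genes -0.05), where 12.3% and 10.8% of tested genes were. Afp, alpha-fetoprotein, was at -4.19 ± 0.49 in Smad2 knockouts and -4.11 ± 0.49 in double knockouts. Ttr, the thyroxine and retinol-complex carrier, was at -3.65 ± 0.39 in Smad2 knockouts. Clu, clusterin, was the ligand called higher, at 1.13 ± 0.27 in Smad2 knockouts (adjusted p = 0.0127) and 1.75 ± 0.28 in Smad3 knockouts (adjusted p = 0.0351). Its call in Smad2 knockouts was lost in 5 of 22 alternatives (0.28 on log2(TPM + 1) values, adjusted p = 0.43). In Smad3 knockouts it was lost in 9 of 22 (adjusted p = 0.21 in a fit of those groups alone).

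Other LDL receptor genes changed in part. Of 11 listed, 10 were tested, and 5 were called lower in Smad2 knockouts than in WT, where 20.1% of tested genes were. Their median was -0.84, and -0.19 with the length offset. Lrp4, an agrin receptor, was at -1.57 ± 0.18 in Smad2 knockouts and -1.67 ± 0.18 in double knockouts. Lrp6, the WNT coreceptor, was at -1.49 ± 0.19 in Smad2 knockouts. Both lost their call there with the length offset, while Lrp4 in double knockouts held in all alternatives. In double knockouts 1 was called lower and 2 higher, where 12.3% and 10.8% of tested genes were. Vldlr, the VLDL receptor, was among those higher (0.93 ± 0.23), and its call was lost without double knockout replicate 2 (0.73).

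Adaptors, chaperones and sorting partners showed no common direction. Of 12 genes, 3 were called higher and 3 lower in Smad2 knockouts than in WT, where 15.4% and 20.1% of tested genes were. In double knockouts 3 were called higher and 1 lower, where 10.8% and 12.3% of tested genes were. Myo6, the myosin VI motor that DAB2 recruits, was at -1.96 ± 0.20 in Smad2 knockouts (adjusted p = 0.000606) and -0.88 ± 0.20 in double knockouts (adjusted p = 0.0112), while in Smad3 knockouts it was at -0.07 ± 0.19 (adjusted p = 0.895). Its call in double knockouts was lost in 4 of 22 alternatives (adjusted p of up to 0.236). Across WT differentiation it rose by 2.23 ± 0.20 on the log2 scale at day 4. Ehd1, an endosome recycling factor, was at 1.39 ± 0.27 in Smad2 knockouts and 0.97 ± 0.27 in double knockouts. The first call was lost on both TPM scales (0.59 and 0.60, adjusted p = 0.091 and 0.0922) and the second in 5 of 22 alternatives (adjusted p of up to 0.146).

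Clathrin and AP2 genes were called in both directions in Smad2 knockouts. Of 16, 4 were called higher and 3 lower there than in WT, where 15.4% and 20.1% of tested genes were. In double knockouts 5 were called higher and 0 lower, where 10.8% and 12.3% of tested genes were. Cltc, the clathrin heavy chain, was at -1.30 ± 0.21 in Smad2 knockouts, a call lost with the length offset. Cltb, a light chain, was at 1.41 ± 0.26 in Smad2 knockouts (call lost in a fit of those groups alone, adjusted p = 0.0501) and 1.53 ± 0.26 in double knockouts, and at -4.38 ± 0.29 in WT day 4 against day 0. Ap2s1, the small AP2 subunit, was at 1.68 ± 0.34 in Smad2 knockouts. Medians of the clathrin list in Smad2 knockouts were between -0.88 and 0.35 over the alternatives, and those of the adaptor list between -0.79 and 0.23, so neither has a direction.

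Of 12 endosome genes, 2 were called higher and 4 lower in Smad2 knockouts, and 2 higher and 0 lower in double knockouts. Among all tested genes 15.4% were called higher and 20.1% lower in Smad2 knockouts, and 10.8% and 12.3% in double knockouts. Clcn5, the endosomal chloride-proton exchanger, was at -1.47 ± 0.21 in Smad2 knockouts (call lost with the length offset) and at 2.84 ± 0.22 in WT day 4 against day 0. Ctsb, the lysosomal protease cathepsin B, was at 1.19 ± 0.15 in double knockouts. Of 9 other uptake receptors, 3 were called higher and 2 lower in Smad2 knockouts, and 4 higher and 0 lower in double knockouts. Tfrc, the transferrin receptor, was at 1.26 ± 0.25 in double knockouts, and Cd320, the cellular receptor for vitamin B12 on transcobalamin, at 1.12 ± 0.18 in Smad2 knockouts. Tfrc lost its call without double knockout replicate 2 (1.04, adjusted p = 0.0625). Cd320 lost its call with the length offset (0.41, adjusted p = 0.103) and on both TPM scales (0.38 on each, adjusted p = 0.185 and 0.19). In Smad3 knockouts edgeR called 0 genes of the LDL receptor, adaptor, clathrin, endosome and other uptake lists, where it called 0.555% of tested genes. DESeq2 called 2 endosome genes and 1 LDL receptor gene higher there and 0 of the others. Over all 32651 genes it was given, it called 497 higher and 279 lower. By edgeR an unadjusted p under 0.05 was found for 1, 2, 1, 2 and 1 genes of the 5 lists. Among all 19470 tested genes 3343 had one.

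The genes closest in pattern to each member were found by the root mean square (RMS) difference of centred log2 CPM over the 10 libraries, among 12373 genes with at least 5 CPM in a group. Dab2 was most like Amot, an angiomotin scaffold protein (RMS difference 0.30), followed by Ctsh (0.43), Clic6 (0.47), Srgn (0.59) and Prox1 (0.67). Amot had 43.9 and 29.0 CPM in Smad2 knockouts, 248 and 231 CPM in Smad3 knockouts and 66.2 and 75.7 CPM in double knockouts, against 391 and 315 CPM in WT day 4 and 3.94 and 4.87 CPM in WT day 0. Cubn was most like Ttr (0.79), Muc13 (0.81), Dab2 (0.87), Cemip (0.87) and Foxa2 (1.02). Lrp2 was most like Irgm2 (0.28), Prickle1 (0.31), Ror1 (0.34), Kctd12b (0.34) and 2810459M11Rik (0.34). Amn, which is low in CPM, was most like Gm12435 (0.58), Epha8 (0.63), Car7 (0.70), Myrf (0.70) and Cacna1g (0.70).

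Members were unequally alike among themselves. The nearest pair was Dab2 and Cubn (0.87), then Amn and Lrp2 (1.02), Dab2 and Lrp2 (1.13), Dab2 and Amn (1.77), Cubn and Lrp2 (1.87), and Cubn and Amn (2.41). Cubilin and its anchor amnionless thus had the largest RMS difference of the 6 pairs. This measure also takes in the size of changes and the spread of replicates, which for Amn was 5.77-fold in WT day 4. The length trend had opposite signs for Cubn and Amn, at -1.08 and 0.25 (log2) in WT day 0 replicate 1. In WT day 4 replicate 1 it was 0.77 and -0.32. The part of either in this distance was not tested. The lists of nearest genes depended on scale and on single libraries. With log2(TPM + 1) values 3 of the 5 remained for Dab2, 1 for Cubn, 3 for Amn and 1 for Lrp2. Leaving out 1 library at a time, at least 3 remained for Dab2 and for Cubn. For Amn 1 remained without WT day 4 replicate 2 or without Smad2 knockout replicate 1, and 2 without WT day 4 replicate 1. For Lrp2 2 remained without WT day 4 replicate 1 or without either Smad2 knockout library. All distances share the same libraries, and the size of the change in WT day 0 weighs in them.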

How the data were processed

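RNA-seq of 10 libraries was analysed. The authors deposited expected counts per gene and TPM from RSEM (TPM with 2 decimals) on mm10, per the submitters' processing notes. Tools listed there without role or order are STAR, RSEM, Bowtie2, HOMER and FastQC (version 0.11.5). Gene names came from GENCODE M21, matching 50604 of 53379 gene IDs with their version, 2670 more without it and 105 not at all. Of the counts, 12.192 to 14.622% per library were not whole, and all were rounded.

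Tests used edgeR 4.0.16 (TMM, filterByExpr, quasi-likelihood) under R 4.3.3, in 1 fit over 5 groups of 2 libraries, with Benjamini-Hochberg adjustment over 19470 genes and a threshold of 0.05. CPM was computed from the rounded counts on TMM-scaled totals. The fit had 5 residual degrees of freedom. Replicates of every group differed by more than sampling noise, so none was treated as a repeated deposit of 1 library, which does not show separate cultures. Alternatives used other scalings and filters, each pair of groups alone, blocks by replicate number and by series of table names, DESeq2 1.42.0, limma 3.58.1 on log2(TPM + 1) and log2(TPM + 0.1), smooth offsets for transcript length and GC content, and leaving out each library. RSEM lengths weight transcripts by estimated share, so TPM moves with that estimate.

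The 4 genes, the lists and the named-gene rule were chosen with earlier results of these data known. The genes named from a list are among the 2 called genes in each direction with the largest change, if the higher group averaged 5 CPM or more. Myo6 in Smad3 knockouts was added after its value was seen, and some list genes that the rule picks are not reported here. Calculations were tested on simulated data.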

Additional observations from a re-analysis of the deposited data

Results flagged for a closer look

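Cubn is listed here because the effect of Smad2 loss differed between Smad3 knockout and WT cells, by an interaction term of 4.07 on the log2 scale (SE 0.53, adjusted p = 0.00461, edgeR quasi-likelihood test). Smad2 loss went with a log2 change of -1.13 in cells without Smad3 by label (double minus Smad3 knockout, adjusted p = 0.0681). In WT cells that change was -5.20 (Smad2 knockout minus WT, adjusted p = 0.000324). For Dab2 the same term was 1.6 (SE 0.35, adjusted p = 0.0173), from -1.87 in cells without Smad3 by label and -3.48 in WT cells. Among all tested genes 18.9% passed this test. Transcript length moved with the term as well, with a Spearman correlation of 0.433 across genes. With the length offset the term was 2.84 for Cubn and 1.36 for Dab2, and the part of length in these results was not tested. Each genotype is a single line, and the line and the genotype cannot be told apart.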

How the results depend on the processing

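Each result was recomputed under 22 alternatives, of which 10 left out a library each. Dab2, Cubn and Lrp2 kept direction and call under all 22 in double knockouts against WT and in WT day 4 against day 0, and Dab2 and Cubn did in Smad2 knockouts against WT. Of 68 values of list genes, 35 kept theirs and 33 lost a call somewhere. Where a call or a sign changed, the cause was not tested, except that fits of compared groups alone hold fewer samples. Values below are log2 differences with adjusted p in parentheses.

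With the length offset Lrp2 was -0.38 (0.127) in Smad2 knockout minus WT, -0.0671 (0.811) in Smad2 minus Smad3 knockout, -1.34 (0.0011) in double minus Smad2 knockout and -1.03 (0.0324) in the interaction, and Amn was 0.13 (0.914) in double minus Smad2 knockout. With the length and GC offset Lrp2 was -0.0940 (0.557), -1.31 (0.000112) and -0.98 (0.00608) in Smad2 minus Smad3 knockout, double minus Smad2 knockout and the interaction. Cubn was -1.41 (0.0391) in Smad3 knockout minus WT and -1.04 (0.0418) in double minus Smad3 knockout, and Amn -2.63 (0.00607) in Smad2 minus Smad3 knockout, 0.67 (0.322) in double minus Smad2 knockout, -1.96 (0.0171) in double minus Smad3 knockout and 1.40 (0.0444) in double knockout minus day 0. In fits of the compared groups alone Amn was -2.48 (0.0547) and -2.71 (0.09) in Smad2 and double knockout minus WT, -1.96 (0.0291) in Smad2 minus Smad3 knockout and -2.27 (0.0112) in double minus Smad3 knockout, where Cubn was -1.14 (0.00807). Without a filter Cubn was -1.59 (4.82e-09) in Smad3 knockout minus WT and -1.13 (2.6e-05) in double minus Smad3 knockout, and Amn -1.99 (5.89e-07) in Smad2 minus Smad3 knockout and -2.27 (1.22e-08) in double minus Smad3 knockout. DESeq2 gave Cubn -1.57 (0.00121) in Smad3 knockout minus WT and -1.11 (0.0169) in double minus Smad3 knockout.

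With library totals in place of TMM, Amn was -2.34 (0.0489) in Smad2 minus Smad3 knockout and 0.0329 (0.979) in double minus Smad2 knockout, where Lrp2 was 0.0796 (0.729). On log2(TPM + 1) values Amn was -1.99 (0.0528) in double knockout minus WT, -1.99 (0.0276) in Smad2 minus Smad3 knockout and 0.23 (0.781) in double minus Smad2 knockout. Lrp2 was 0.65 (0.0122) in double minus Smad2 knockout and 1.08 (0.0106) in the interaction, and Cubn -0.97 (0.0474) in double minus Smad3 knockout and 0.63 (0.172) in Smad2 knockout minus day 0. With log2(TPM + 0.1) Amn was -2.41 (0.0571), -2.52 (0.0235) and 0.34 (0.73) in the same 3 comparisons, and Lrp2 0.71 (0.0134) and 1.14 (0.0131).

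Replicate numbers are shared between groups, but the labels do not say what they pair. Differences between replicates 1 and 2 correlated at 0.104 to 0.708 among 4 groups, highest between WT day 4 and Smad3 knockouts. With the double knockout they correlated at -0.254 to -0.0227. The main fit used no pairing. With the replicate block Amn was -2.29 (0.0692) in double knockout minus WT and 0.0624 (0.955) in double minus Smad2 knockout. With a block by series of table names Amn was -1.69 (0.0712), -2.02 (0.0214) and 0.58 (0.47) in double knockout minus WT, Smad2 minus Smad3 knockout and double minus Smad2 knockout.

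Leaving out 1 library at a time, Amn lay between 1.43 and 3.9 in WT day 4 minus day 0, -3.33 and -0.72 in Smad2 knockout minus WT, -1.27 and 1.26 in Smad3 knockout minus WT, -3.73 and -1.01 in double knockout minus WT, -2.83 and -1.22 in Smad2 minus Smad3 knockout, -1.25 and 0.56 in double minus Smad2 knockout, and -3.23 and -1.50 in double minus Smad3 knockout. Against day 0 it lay between -0.15 and 1.22 for Smad2, 1.92 and 3.19 for Smad3 and -0.55 and 0.98 for double knockouts, and for the interaction between -1.55 and 1.06. Cubn lay between -1.75 and -1.39 in Smad3 knockout minus WT and -1.66 and -0.75 in double minus Smad3 knockout, and the Dab2 interaction between 1.26 and 1.88.

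Among list genes, Rhox5 in WT day 4 minus day 0 was 0.0782 and 0.0796 on the 2 TPM scales, 0.42 with the length offset and 0.40 with length and GC, and in Smad2 knockout minus WT -0.11 and -0.0583 with those offsets. Appl1 was 0.34 and 0.62 with the offsets in Smad2 knockout minus WT. Over all genes, Smad2 knockouts had 2993 calls higher and 3911 lower than WT, against 2126 and 4808 with library totals (median -0.20) and 800 and 6168 on log2(TPM + 1) values (median -0.51). Double minus Smad2 knockout had 3998 higher and 3717 lower, against 5479 and 2266 with library totals and 7082 and 673 on log2(TPM + 1) values. Smad3 knockouts had 108 calls against WT, 1096 without a filter, 776 by DESeq2, 1273 with length and GC, 0 alone and 2709 without WT day 4 replicate 2. Amn at 46 to 1015 counts per library limits what can be told of it.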
